A study of Mus musculus with 5480 samples.

Results

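The 10 genes described here encode transcription factors of the lung mesenchyme. They are the T-box factors Tbx2, Tbx3, Tbx4 and Tbx5, the basic helix-loop-helix factors Tcf21, Twist1 and Twist2, the homeobox factors Meox2 and Prrx1, and the zinc-finger factor Gata6. They were taken by name from a table of read counts, which held all 10 among its 18072 genes. The counts came from 5480 single cells of mouse distal lung, sorted and sequenced on plates, and from 10 mice, each of the 5 groups holding 1 female and 1 male. Mice without treatment (labelled normal) were taken at embryonic day 18.5 (E18.5) and at postnatal days 1, 7 and 21 (P1, P7 and P21), and the fifth group at P7 was labelled hyperoxia, meaning oxygen-rich air. The labels give no strain, genotype, oxygen level or duration of exposure, so no allele or agent is known to be shared by the groups. The comparisons ask how these factors differ between mesenchymal cell types, across birth and the first weeks of life, and after hyperoxia.

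T-box proteins bind DNA through a shared domain and act as activators or repressors. Tbx4 and Tbx5 act in the mesenchyme of the early lung bud, where they are needed for lung outgrowth and branching, and Tbx2 and Tbx3, mostly repressors, keep the mesenchyme proliferating. Tcf21 is required in lung mesenchyme for alveoli to form and marks lipid-bearing fibroblasts, and Gata6 is known from smooth muscle as well as from lung epithelium. Meox2 acts in somite, muscle and vessel development, Prrx1 marks limb and other connective tissue progenitors, and Twist1 and Twist2 are tied to mesenchymal identity.

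The authors gave each cell 1 of 16 subtype names, made from expression in these same cells. For tests, their early and later forms were joined, which left 8 classes: alveolar fibroblast, adventitial fibroblast, myofibroblast, airway smooth muscle, vascular smooth muscle, pericyte, fibroblast precursor, and the precursor of myofibroblasts and smooth muscle, called muscle precursor from here on. Reads were summed over the cells of a mouse and class, and a mouse entered with a class where it had at least 10 cells of it. Levels are given as CPM, counts per 1000000 reads of that sum. Class means pool all ages and the hyperoxic mice, while both precursor classes entered at E18.5 only, so the order of classes is mixed with age and treatment. Each mouse held 311 to 633 cells and 294154721 to 671766116 reads, and a cell held 39358 to 5177020 reads, with a median of 774305. The mice at P7 in hyperoxia had more genes per cell, with medians of 4268 and 5545, than the normal mice at P7 with 2988 and 2963. They were also sequenced on runs of their own apart from a small run, so run and hyperoxia cannot be told apart. The summed level of 5 alveolar fibroblast markers was 17752 to 51615 CPM in alveolar fibroblasts and at most 8773 in adventitial fibroblasts, and that of 5 pericyte markers was 5018 to 7819 CPM in pericytes and at most 2269.7 elsewhere. Vascular smooth muscle, with 1933 to 4590.1 CPM of its 5 markers, overlapped with airway smooth muscle at 1837 to 4516, and the myofibroblast markers reached 17913 CPM in airway smooth muscle against at most 8444 in myofibroblasts, so those lists did not separate these classes.

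On average over mice, Tcf21 and Meox2 were highest in the fibroblast classes, and they were nearly missing from myofibroblasts and airway smooth muscle. By the mean over mice, Tcf21 was highest in fibroblast precursors, with 1705 CPM in the female and 1435 in the male at E18.5. Alveolar fibroblasts of these same mice had 1746 and 369.8 CPM of Tcf21. In alveolar fibroblasts its level was 829 ± 492 CPM (SD, n = 10 mice), with a lowest, median and highest mouse of 216, 779 and 1746. Adventitial fibroblasts followed with 391 ± 320.1 (n = 10; 135, 283 and 978), then pericytes with 215 ± 111 (n = 8; 78.0, 198 and 456) and vascular smooth muscle with 80.6 ± 43.3 (n = 8; 28.4, 72.3 and 154). Pericytes were above adventitial fibroblasts at P21, with 224 and 144 against 135 and 139 CPM, and in the male at P1, with 456 against 361. In the other mice with enough pericytes they were below. Airway smooth muscle was at the bottom, below myofibroblasts and muscle precursors, with 2.55 ± 3.53 (n = 8; 0, 1.04 and 9.63). Of the 7 steps between neighbouring classes in this order, 4 exceeded the larger of the SDs on either side, among them those from fibroblast precursor to alveolar fibroblast and from pericyte to vascular smooth muscle. The share of cells with a Tcf21 read, after each cell was thinned to 100000 reads, was 98.4% in fibroblast precursors, 87.2% in alveolar fibroblasts and 5.38% in airway smooth muscle, and without thinning it was 99.6%, 86.9% and 6.32%.

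By the mean over mice of all ages, Meox2 was highest in alveolar fibroblasts, at 591 ± 321 CPM (SD, n = 10; lowest 200.4, median 642, highest 1016). Fibroblast precursors came next, at 371 and 454 CPM in the female and the male at E18.5. In these same mice Meox2 was lower in alveolar fibroblasts, at 211 and 304 CPM. Its mean in adventitial fibroblasts was 187 ± 78.4 (n = 10; 64.5, 183 and 311), and every other class averaged 34.6 or less. In airway smooth muscle the median mouse had none and the highest had 12.5 CPM. The steps from fibroblast precursor to adventitial fibroblast and from adventitial fibroblast to pericyte exceeded the larger SD. Among single cells thinned to equal depth, 65.7% of alveolar fibroblasts (mean over mice) held reads of both Tcf21 and Meox2, against 63.6% from the product of the separate shares, and 42.1% of adventitial fibroblasts did, against 37.7%. Over the 15 subtypes with at least 10 cells in a mouse, log2(mean CPM + 1) of Tcf21 and Meox2 gave Pearson's r of 0.96 and Spearman's rho of 0.95. Among 12074 genes that reached 10 CPM in a subtype, Meox2 was the gene most like Tcf21, followed by Lbh at 0.952 and Fgfr3 at 0.949, and those most like Meox2 were Lbh at 0.975, Tcf21 at 0.959 and Vegfd at 0.955. These correlations describe 15 points that share mice, libraries and depth, and early and later forms of a type are separate points.

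Promoter windows, the 250 bases before the annotated start, were found in RefSeq's table (GRCm38.p6) for 6 of the 10 genes: Tbx4, Tcf21, Meox2, Twist1, Twist2 and Prrx1. Tcf21 and Meox2 are shown because their levels moved together over subtypes, and Prrx1 because its order differed from theirs and because its window alone held the homeobox core. Both strands were searched for the E-box CANNTG, bound by basic helix-loop-helix factors, the T-box core GGTGTGA and the homeobox core TAATTA, and matches are in capitals.
Tcf21, chr10:22820144-22820393, minus strand: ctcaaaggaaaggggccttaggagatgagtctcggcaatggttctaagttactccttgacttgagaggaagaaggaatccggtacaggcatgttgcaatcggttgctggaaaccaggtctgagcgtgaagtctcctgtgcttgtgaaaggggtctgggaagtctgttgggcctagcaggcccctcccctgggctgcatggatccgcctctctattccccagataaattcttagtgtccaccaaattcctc
Meox2, chr12:37108290-37108539, plus strand: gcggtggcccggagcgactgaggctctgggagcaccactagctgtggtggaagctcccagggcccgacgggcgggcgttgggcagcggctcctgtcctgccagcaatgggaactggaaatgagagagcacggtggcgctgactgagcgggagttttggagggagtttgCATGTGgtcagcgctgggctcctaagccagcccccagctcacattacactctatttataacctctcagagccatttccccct
Prrx1, chr1:163313651-163313900, minus strand: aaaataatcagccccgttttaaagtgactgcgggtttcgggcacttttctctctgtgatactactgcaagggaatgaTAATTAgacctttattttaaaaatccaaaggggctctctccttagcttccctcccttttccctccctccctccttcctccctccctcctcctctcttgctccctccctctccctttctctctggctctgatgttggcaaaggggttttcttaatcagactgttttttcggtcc
Tcf21 had 0 matches and a GC content of 52.4%, which is also the median of all windows. The Meox2 window held 1 E-box, CATGTG, with 62.0% GC, and that of Prrx1 1 TAATTA with 47.6% GC. Of 32851 windows of this length, 66.2% held an E-box, 3.33% the T-box core and 4.84% the homeobox core. The T-box core was in none of the 6 windows. No match says only that these letters are not in this window.

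Tbx2, Tbx3, Tbx4 and Tbx5 were spread over more classes, and each was lowest in adventitial fibroblasts or vascular smooth muscle. Tbx2 and Tbx4 are neighbours on chromosome 11 with 0 annotated genes between them in RefSeq, and Tbx3 and Tbx5 lie on chromosome 5 with 0 protein-coding and 2 other genes between them. Tbx2 was highest in pericytes, at 387 ± 173 CPM (SD, n = 8; lowest 147, median 395, highest 689), and lowest in adventitial fibroblasts, at 49.2 ± 35.3 (n = 10; 13.6, 34.9 and 127). No mouse's pericytes were as low as any mouse's adventitial fibroblasts. Between these, fibroblast precursors had 320.1 and 338 CPM, muscle precursors 283 and 335, alveolar fibroblasts 224 ± 54.6, myofibroblasts 186 ± 71.7, airway smooth muscle 133 ± 56.4 and vascular smooth muscle 93.2 ± 60.6. Only the step from muscle precursor to alveolar fibroblast exceeded the larger SD.

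Tbx3 was highest in muscle precursors, myofibroblasts and airway smooth muscle. Muscle precursors had 203 and 223 CPM, myofibroblasts 137 ± 75.4 (SD, n = 6; lowest 46.3, median 141, highest 257) and airway smooth muscle 113 ± 64.4 (n = 8; 50.0, 97.1 and 206). Vascular smooth muscle was lowest with 23.7 ± 32.0 (n = 8; 0.629, 13.0 and 97.4), and its range overlapped with that of airway smooth muscle. Alveolar fibroblasts, adventitial fibroblasts and fibroblast precursors averaged 28.0, 33.9 and 36.9 CPM, and no step among these low classes exceeded the larger SD.

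Tbx4 was even across most classes. Muscle precursors averaged 226 CPM, myofibroblasts 188 ± 39.5 (SD, n = 6; lowest 143, median 191, highest 238), pericytes 179.6 ± 97.9 (n = 8), fibroblast precursors 175, airway smooth muscle 121 ± 45.6 (n = 8) and alveolar fibroblasts 120.0 ± 41.8 (n = 10). The only step beyond the larger SD was the step to adventitial fibroblasts at 41.3 ± 49.6 (n = 10; 7.60, 26.6 and 177), and vascular smooth muscle was lower still at 14.9 ± 14.7 (n = 8; 1.89, 7.61 and 42.4). The 177 CPM came from the female at E18.5, whose adventitial fibroblasts numbered 26.

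Tbx5 was highest in muscle precursors, with 554 CPM in the female and 449.6 in the male, and in pericytes, with 377 ± 129 (SD, n = 8; lowest 194, median 391, highest 586). Myofibroblasts, fibroblast precursors, alveolar fibroblasts, vascular smooth muscle and airway smooth muscle averaged 193, 192, 151, 135 and 120.4 CPM, with no step between them beyond the larger SD. Adventitial fibroblasts were again lowest at 41.7 ± 25.9 (n = 10; 8.02, 35.2 and 89.6). In single cells of muscle precursors thinned to equal depth, Tbx3 and Tbx5 reads occurred together in 74.5%, against 70.3% from the product of the separate shares, and in pericytes Tbx2 and Tbx4 occurred together in 50.1%, against 43.6%. The pair Tbx3 and Tbx4 gave r of 0.87 and rho of 0.76 over the 15 subtypes, and Tbx2 and Tbx4 gave 0.82 and 0.69, again as descriptions.

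**Figure D1:**
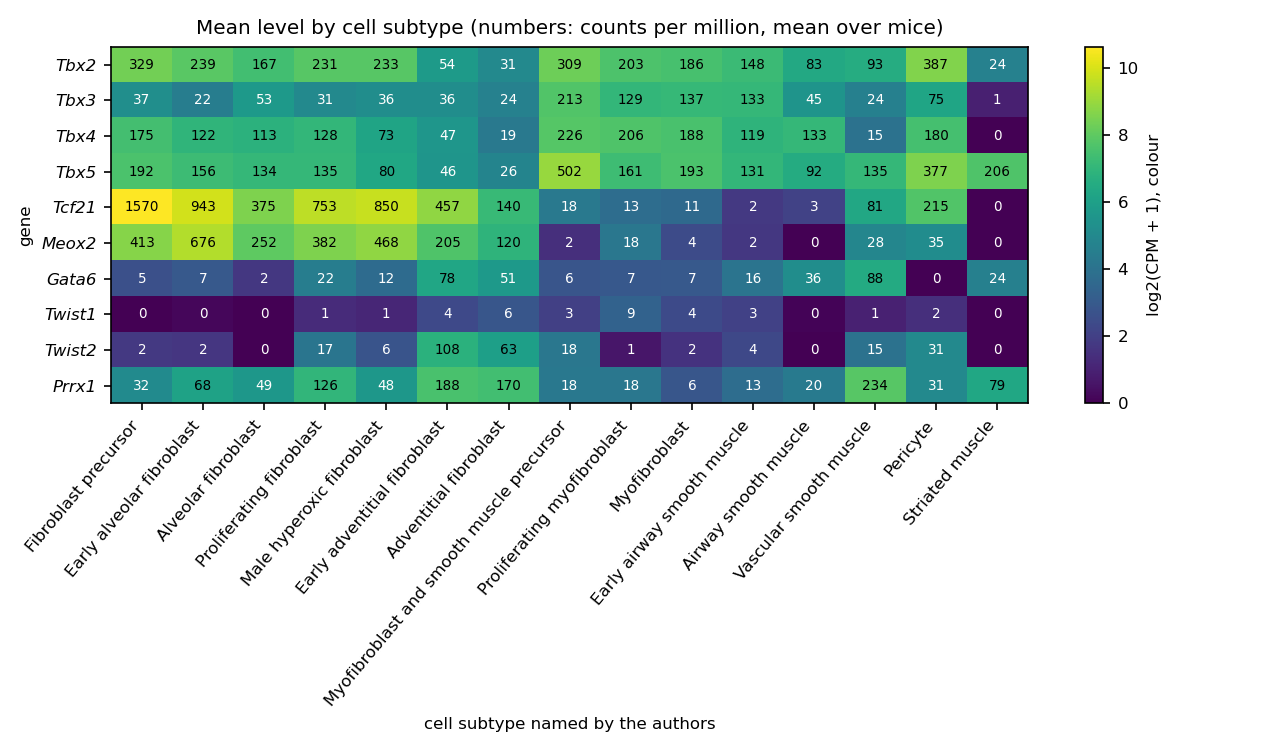
Mean level of each of the 10 factors (rows) in each subtype (columns), as log2(CPM + 1) averaged over mice with at least 10 cells. Tcf21 and Meox2 are high in the fibroblast columns and the fibroblast precursor column, Tbx3 in the muscle precursor column at 213 CPM, and Twist2 in the adventitial columns. Gata6 and Prrx1 are high in the adventitial columns and highest in the vascular smooth muscle column.

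Among the 8 classes, Gata6, Prrx1 and Twist2 were highest in adventitial fibroblasts or vascular smooth muscle. Gata6 averaged 88.3 ± 63.7 CPM in vascular smooth muscle (SD, n = 8; lowest 7.83, median 101, highest 199.7) and 72.0 ± 36.8 in adventitial fibroblasts (n = 10; 35.0, 55.1 and 137). It was at 20.9 ± 14.6 in airway smooth muscle, and alveolar fibroblasts had 5.85 ± 5.37 (n = 10). In pericytes 2 Gata6 reads were found in all, both in the female at P21, among 273 cells of 8 mice. Vascular smooth muscle reached down to 7.83 CPM, in the male at P21 with 19 cells, yet stayed above every mouse's pericytes. At P21 vascular smooth muscle, at 24.9 and 7.83 CPM, was below the later form of airway smooth muscle, at 44.9 and 26.8. It was also below the later form of adventitial fibroblasts, at 61.7 and 39.7.

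Prrx1 shared its 2 highest classes with Gata6 but not the order of the others, with 234 ± 166 CPM in vascular smooth muscle (SD, n = 8; lowest 66.9, median 183, highest 593) and 186 ± 34.2 in adventitial fibroblasts (n = 10; 138, 181 and 251). The step down to alveolar fibroblasts, at 63.9 ± 19.2 (n = 10; 39.6, 61.0 and 104), exceeded the larger SD. Myofibroblasts were lowest with 6.08 ± 6.33 (n = 6; 0, 4.88 and 15.0). Twist2 had 98.3 ± 45.0 CPM in adventitial fibroblasts (n = 10; 53.0, 81.3 and 169), pericytes came next at 31.0 ± 33.7 (n = 8; 0, 20.4 and 101), and alveolar fibroblasts were lowest at 1.73 ± 2.02 (n = 10; highest 5.64). No adventitial sample overlapped with an alveolar one. Twist1 had few reads in every class, with a highest mean of 4.55 ± 3.52 CPM, in adventitial fibroblasts (n = 10), and no step of its order exceeded the larger SD. Myofibroblasts came first without the male at E18.5, the male at P1 or the female at P21.

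Compared per length, as CPM per kilobase of annotated exons, different factors led in different classes. Tcf21 led in fibroblast precursors with 669 CPM per kilobase and in alveolar fibroblasts with 353, where Meox2 followed with 250.3. Tbx2 and Tcf21 led in pericytes with 107 and 91.7 CPM per kilobase, and Tbx5 and Tbx2 in muscle precursors with 107 and 85.2. In myofibroblasts the first were Tbx4 with 55.4 and Tbx2 with 51.2, in airway smooth muscle Tbx2 with 36.7 and Tbx4 with 35.7, and in vascular smooth muscle Tcf21 with 34.3, Tbx5 with 28.9 and Tbx2 with 25.7. In adventitial fibroblasts Tcf21 stood at 167 CPM per kilobase, Meox2 at 79.1 and Twist2 at 31.0.

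**Figure D2:**
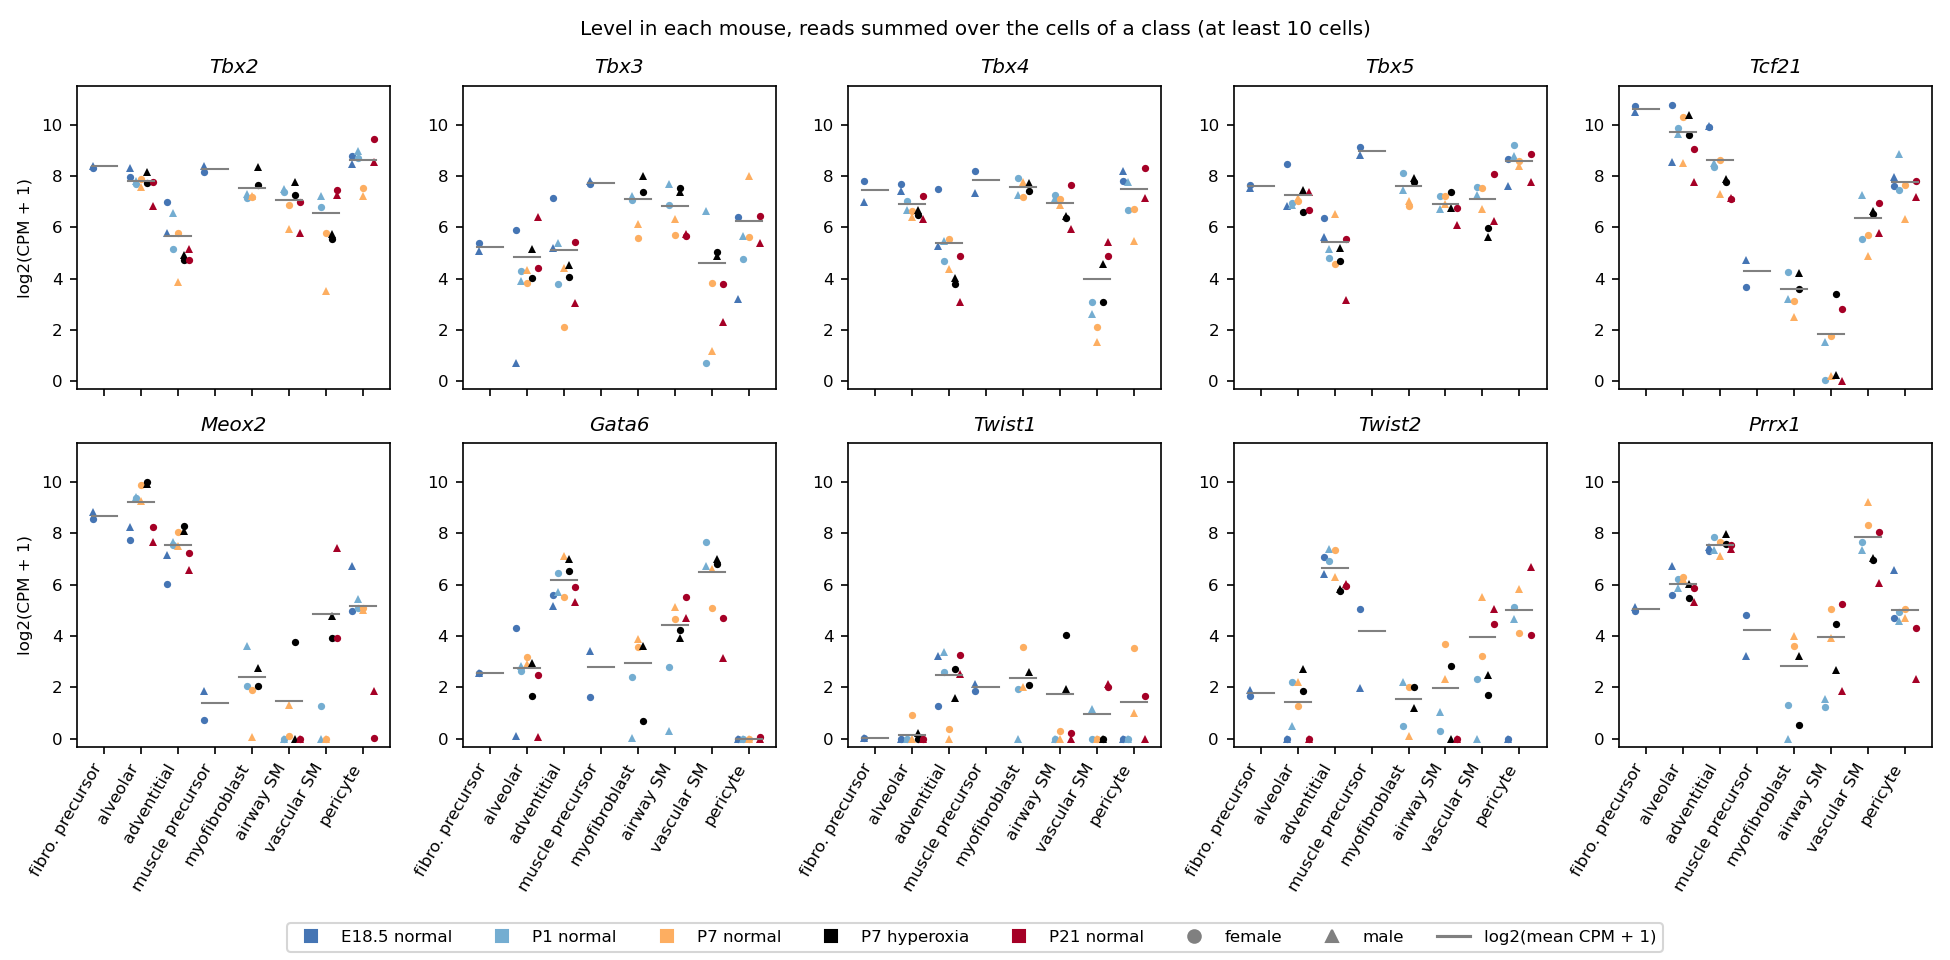
Level of each factor in CPM (log axis) by class, 1 point per mouse with the mean over mice. The points show Gata6 at or near 0 in pericytes, Meox2 between 200.4 and 1016 CPM in alveolar fibroblasts, and Twist2 in adventitial fibroblasts above every alveolar point.

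The smaller subtypes are given as values without a test. Proliferating fibroblasts (139 cells, 5 mice with at least 10) had 753 ± 293 CPM of Tcf21, 382 ± 81.7 of Meox2 and 126 ± 62.0 of Prrx1. Proliferating myofibroblasts (94 cells, 3 mice) had 206 ± 7.28 CPM of Tbx4, 203 ± 19.7 of Tbx2 and 12.7 ± 1.04 of Tcf21, against 188, 186 and 11.2 in myofibroblasts. They also had 17.7 ± 30.7 CPM of Meox2, 17.7 ± 15.0 of Prrx1 and 9.02 ± 4.11 of Twist1, against 4.35, 6.08 and 4.17. A subtype that the authors named for hyperoxic males, with 55 cells of 1 mouse, had 850.1 CPM of Tcf21, 468 of Meox2 and 233 of Tbx2. Striated muscle, 16 cells of the female at P21, had 206 CPM of Tbx5 and 79.0 of Prrx1, and no read of Tcf21, Meox2, Tbx4, Twist1 or Twist2.

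Classes were compared within mice by edgeR's quasi-likelihood test, with the mouse as a term and Benjamini-Hochberg adjustment over 16832 genes, and a gene is called where the adjusted p is under 0.05. Because the authors' names rest on expression in the same cells, the p-values measure how steady a difference was over mice and are no independent proof of it. Between alveolar and adventitial fibroblasts, 7 of the 10 factors were called, against 6.86% of all genes. Those higher in alveolar fibroblasts were 3, against 2.69% of all genes, and those lower were 4, against 4.18%. Tbx2 was higher in alveolar fibroblasts by 2.36 on the log2 scale (SE 0.312, edgeR adjusted p = 6.69e-07), in 10 of 10 mice. Tbx5 was higher by 1.92 (SE 0.287, edgeR adjusted p = 6.64e-06) and Tbx4 by 1.84 (SE 0.378, edgeR adjusted p = 7.96e-04), also in 10 of 10. On the adventitial side were Gata6, with a log2 difference of -3.87 (SE 0.788, edgeR adjusted p = 7.48e-04), and Twist2, with -6.67 (SE 1.46, edgeR adjusted p = 0.00182), each lower in alveolar fibroblasts in 10 of 10 mice. Twist1 had -8.89 (SE 2.27, edgeR adjusted p = 0.00866) at means of 0.108 and 4.55 CPM, lower in 8 of 10. Prrx1 had -1.67 (SE 0.537, edgeR adjusted p = 0.0492) and was lower in 10 of 10. The Prrx1 call was lost without any single mouse other than the E18.5 male and the P1 male, with edgeR adjusted p up to 0.0927. Tcf21 and Meox2 did not pass, with 1.13 (edgeR adjusted p = 0.216) and 1.60 (edgeR adjusted p = 0.456), although Meox2 was higher in 10 of 10 mice, and Tbx3 had -0.07.

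Between alveolar fibroblasts and myofibroblasts, in 6 mice from P1 and P7, 5 of the 10 factors were called, against 7.68% of all genes, 3 of them higher (4.52%) and 2 lower (3.15%). Tcf21 averaged 904 CPM in alveolar fibroblasts and 11.2 in myofibroblasts of these mice, a log2 difference of 6.11 (SE 0.779, edgeR adjusted p = 3.01e-07). Meox2, at 815 and 4.35 CPM, differed by 7.29 (SE 1.66, edgeR adjusted p = 0.00257) and Prrx1, at 65.2 and 6.08 CPM, by 3.97 (SE 0.761, edgeR adjusted p = 3.18e-04). These 3 were higher in alveolar fibroblasts in 6 of 6 mice. Tbx3 was lower in 6 of 6, at 19.3 against 137 CPM, with -2.24 (SE 0.728, edgeR adjusted p = 0.0484), and Twist1 in 5 of 6, with -7.34 (SE 2.16, edgeR adjusted p = 0.0245). The Tbx3 call was lost without any single mouse other than the P7 normal male and the P21 male (edgeR adjusted p up to 0.15), with DESeq2's size factors, without a filter on low counts and with the main runs alone. That of Twist1 was lost without the female at P1, the male at P7 or the female at P21 (edgeR adjusted p up to 0.109). Tbx4 was also lower in alveolar fibroblasts in 6 of 6 mice, with -1.06, and did not pass (edgeR adjusted p = 0.124).

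Myofibroblasts and airway smooth muscle differed in 1 of the 10 factors, against 0.891% of all genes, the 1 being higher (0.457%, against 0.434% of genes lower). It was Tcf21, at 11.2 and 2.38 CPM, higher in myofibroblasts in 6 of 6 mice by 2.61 (SE 0.677, edgeR adjusted p = 0.0460). Left without any single mouse other than the female in hyperoxia and the female at P21, it did not pass (edgeR adjusted p up to 0.199), nor with DESeq2's size factors, with at least 20 cells per mouse and class, with limma, or without the mouse term.

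Airway and vascular smooth muscle differed in 4 of the 10 factors, against 6.6% of all genes, 2 higher in airway muscle (3.66%) and 2 lower (2.94%). In all 8 of 8 mice Tcf21 was lower in airway muscle, with -5.52 (SE 0.692, edgeR adjusted p = 3.16e-07), and so was Prrx1, with -4.15 (SE 0.679, edgeR adjusted p = 4.15e-05). Tbx4, at 121 and 14.9 CPM, was higher in airway muscle by 3.16 (SE 0.455, edgeR adjusted p = 4.77e-06) and Tbx3, at 113 and 23.7 CPM, by 2.53 (SE 0.704, edgeR adjusted p = 0.0187), each in 8 of 8. The Tbx3 call was lost without the female at P1 or the male in hyperoxia, with edgeR adjusted p up to 0.0772.

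Vascular smooth muscle and pericytes, both of which line vessels, differed in 5 of the 10 factors in 6 mice, against 10.1% of all genes, 2 higher in vascular muscle (5%) and 3 lower (5.09%). Gata6 averaged 77.9 CPM in vascular smooth muscle and 0.00652 in pericytes, higher in 6 of 6 (edgeR adjusted p = 4.00e-09). With 2 pericyte reads the ratio was 5989, with an exact 95% interval of 1657 to 49464 that covers counting error only. Prrx1 was higher in vascular muscle by 2.94 (SE 0.670, edgeR adjusted p = 0.00223). All of the called T-box factors were lower there in 6 of 6 mice: Tbx4 with -3.27 (SE 0.462, edgeR adjusted p = 2.06e-06), Tbx2 with -2.01 (SE 0.345, edgeR adjusted p = 5.42e-05) and Tbx5 with -1.44 (SE 0.315, edgeR adjusted p = 0.00141).

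Alveolar fibroblasts and pericytes differed in 5 of the 10 factors in 8 mice, against 16.5% of all genes, 3 higher in alveolar fibroblasts (10.7%) and 2 lower (5.79%). Gata6 was higher in alveolar fibroblasts in 8 of 8 (edgeR adjusted p = 6.03e-07), at a ratio of 614 with an exact 95% interval of 169.9 to 5072. Tcf21 was higher by 1.78 (SE 0.561, edgeR adjusted p = 0.0226) and Meox2 by 3.85 (SE 1.26, edgeR adjusted p = 0.0294), each in 8 of 8. Tbx5 was lower in 8 of 8, with -1.30 (SE 0.296, edgeR adjusted p = 0.00134), and Twist2 in 6 of 8, with -4.15 (SE 1.39, edgeR adjusted p = 0.0336). The calls of 3 of these rested on single mice. Meox2 lost its call without the female at P1, P7 (normal) or P21 (edgeR adjusted p up to 0.0592), Tcf21 without the female at E18.5 or either normal mouse at P7 (up to 0.0677 by edgeR), and with at least 20 cells per mouse, and Twist2 without either mouse at P1, either normal mouse at P7 or either mouse at P21 (up to 0.0736 by edgeR).

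The precursors at E18.5 differed in 1 of the 10 factors, against 0.22% of all genes, the 1 being higher in fibroblast precursors (0.125%, against 0.0951% lower). Tcf21 had 1705 and 1435 CPM in fibroblast precursors and 11.8 and 25.3 in muscle precursors, a log2 difference of 6.40 (SE 1.39, edgeR adjusted p = 0.0231). The call was lost without either mouse at E18.5 (edgeR adjusted p up to 1) and without the mouse term. Tbx3, at 36.9 against 213 CPM, and Meox2, at 413 against 1.66, did not overlap either and were not called. Over all 7 comparisons, 28 differences of the 10 factors were called. Without other ages, in the 4 mice at P7 alone, 16 of 27 remained, and among those lost were Tbx4, Tbx5, Twist1 and Twist2 between alveolar and adventitial fibroblasts and Tbx5 between alveolar fibroblasts and pericytes, which no single mouse ended.

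**Figure D3:**
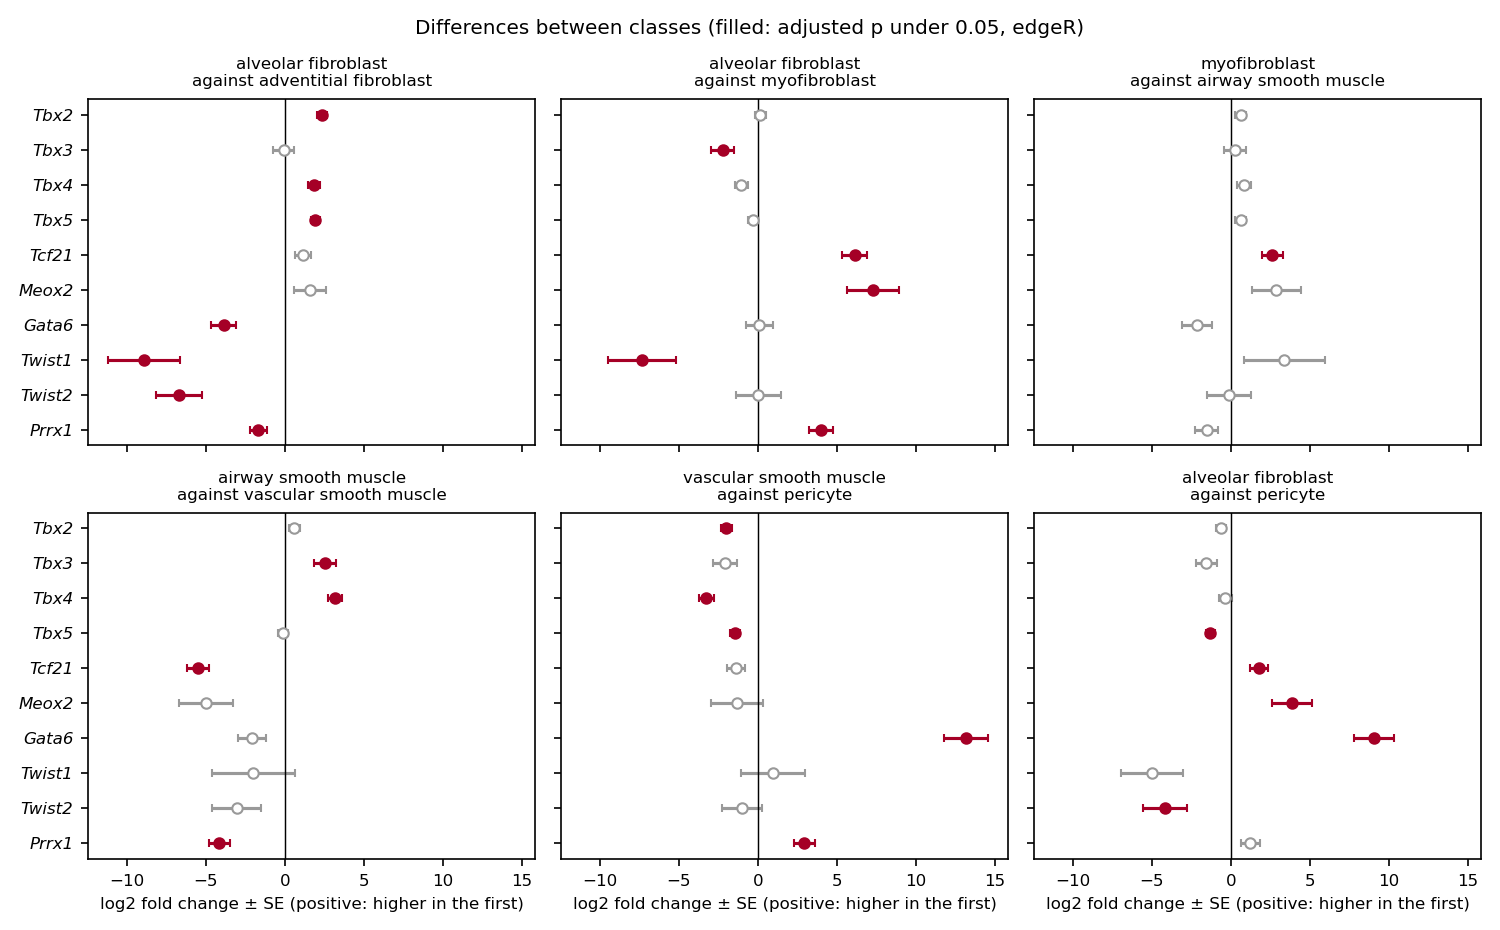
Log2 difference with its SE of each factor between classes of the same mice, 1 panel per comparison, filled where the adjusted p is under 0.05. Tcf21 lies to the alveolar side of myofibroblasts at 6.11, and Gata6 to the vascular muscle side of pericytes, where its fitted size rests on 2 pericyte reads.

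A list of 57 genes related to the factors by family or by known ties in mesenchyme, 46 of them in the table and 43 tested between classes, gave the surroundings of these differences. Between alveolar and adventitial fibroblasts 3 were higher and 8 lower. Wnt2, a lung mesenchymal ligand tied to Tbx4 and Tbx5, had 469.6 against 8.76 CPM and a log2 difference of 7.33 (SE 1.45, edgeR adjusted p = 5.02e-04), and Gata5 had 3.48 (SE 0.726, edgeR adjusted p = 9.98e-04). The T-box gene Tbx18 stood at 0.0116 against 3.34 CPM (log2 -7.75) and Gata2 at 0.0844 against 5.71 (log2 -8.15), both lower in alveolar fibroblasts. Against myofibroblasts, alveolar fibroblasts were higher in 3 and lower in 3, with Shisa3 at 14.75 and Fgf10, a growth factor for the epithelium tied to Tbx4 and Tbx5, at 9.72 (143 against 0.512 CPM), and with Meox1, the relative of Meox2, at -11.56 (0.0222 against 108 CPM) and Scx at -6.45. Meox1 and Meox2 were thus on opposite sides of this comparison.

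Airway against vascular smooth muscle gave 4 higher and 5 lower among the 43, with Gata5 at 160.3 against 0.00605 CPM (log2 14.25), Frzb at 9.42, Tbx18 at -9.70 and Shisa3 at -9.04. Gata6 averaged 20.9 CPM in airway muscle and 88.3 in vascular muscle, lower in airway muscle in 6 of 8 mice, and was not called. The 2 mice with the opposite order were those at P21. Vascular muscle against pericytes gave 6 higher and 5 lower, with Tbx18 at 9.93, Osr1 at 7.69 (407 against 5.14 CPM), Meox1 at -4.68 and Snai1 at -3.76. Alveolar fibroblasts against pericytes gave 9 higher and 3 lower, with Wnt2 at 10.37, Gata5 at 8.82, Meox1 at -11.31 and Tcf24 at -5.60. In that comparison Gata5 and Gata6 were both higher in alveolar fibroblasts. Osr2 was the only listed gene called between myofibroblasts and airway muscle, at 8.55. Between the precursors 0 were called by edgeR, with 7 of 43 at an unadjusted p under 0.05, beside 1101 of 16832 genes.

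Genes whose level over the 15 subtypes was most like that of the other factors were Tcim for Tbx2 (Pearson's r 0.953), Dip2a for Tbx3 (0.954), Rfx1 for Tbx4 (0.951), Srrd for Tbx5 (0.895), Wfdc1 for Gata6 (0.864), S100a16 for Prrx1 (0.869), Glt8d2 for Twist1 (0.863) and Ntm for Twist2 (0.945). Likeness here is over the same 15 points as above and among the same 12074 genes.

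Ages were compared within a class, each with 2 mice against 2 in 1 fit per class with a term for sex, so that the spread was shared with the other groups. The normal males shared a main sequencing run that no female used. Normal females shared another at E18.5 and P1 and had separate main runs at P7 and P21. Sex and run thus cannot be told apart in normal mice. In females, the steps from P1 to P7 and from P7 to P21 were also changes of run. Over 17 comparisons of ages and 167 tests of the factors, 1 difference was called. At an unadjusted p under 0.05 edgeR gave 26, with 0 to 2 in each comparison. Fewest genes were under it in alveolar fibroblasts from P1 to P7, 370 of 15670, beside 0 of 10 factors. Most were under it in that class from E18.5 to P1, 3287 of 15670, beside 2 of 10 factors. DESeq2 called 18 and limma 4 at the adjusted threshold. Among all genes, with 11894 to 16022 tested by edgeR in a comparison, DESeq2 called 15617 over the 17 comparisons, limma 3701 and edgeR 1531. The DESeq2 calls of factors below are to be read beside that general rate. Tbx5, at 554 and 449.6 CPM in muscle precursors at E18.5, was at 146 and 103 CPM in airway smooth muscle at P1. It fell by 1.95 on the log2 scale (SE 0.327, edgeR adjusted p = 0.0288), in a comparison where 0.745% of all genes were called. The call was lost without either mouse at E18.5, P1 or P7 in normal air (edgeR adjusted p up to 0.309), and with only the 4 mice of the comparison. In the same comparison the mice of 8 factors did not overlap, against 46.3% of all genes. Among them were Tbx2, at 283 and 335 against 166 and 177 CPM, and Prrx1, at 27.3 and 8.45 against 1.39 and 1.96, both lower at P1. From muscle precursors to myofibroblasts at P1, 0 factors were called by edgeR against 1.47% of all genes, and 5 did not overlap against 49.9%. Tbx5 went from 554 and 449.6 to 277 and 176 CPM (log2 -1.10, edgeR adjusted p = 0.125; called by DESeq2) and Tbx2 from 283 and 335 to 140.3 and 158 (log2 -0.98, edgeR adjusted p = 0.149). Listed relatives called in these comparisons were Id4, an inhibitor of helix-loop-helix factors, higher in airway smooth muscle by 2.58 (SE 0.478, edgeR adjusted p = 0.0424), and Cdkn1a, a cell cycle inhibitor that Tbx2 and Tbx3 are known to repress, lower in myofibroblasts with -3.86 (SE 0.625, edgeR adjusted p = 0.0291).

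From fibroblast precursors at E18.5 to alveolar fibroblasts at P1, 0 factors were called by edgeR, against 0.125% of all genes, and 8 did not overlap, against 48.6%. Tcf21 went from 1705 and 1435 to 923 and 783 CPM, Tbx2 from 320.1 and 338 to 204 and 223, Meox2 from 371 and 454 to 665 and 683, and Prrx1 from 30.9 and 34.0 to 73.4 and 56.9 (log2 1.10, edgeR adjusted p = 0.558). Tcf21 and Tbx2 were thus lower and Meox2 and Prrx1 higher at P1, within an error that did not allow a call.

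Alveolar fibroblasts numbered 14 and 24 at E18.5, and the median log2 change of all tested genes from there to P1 was 1.35, so changes of this step are relative to a shifted middle. In that step 6.16% of all genes and 0 factors were called by edgeR, and 4 factors did not overlap against 57.4%. Meox2 had 211 and 304 CPM (E18.5), 665 and 683 (P1), 937 and 619 (P7), and 300.3 and 200.4 (P21). Both P1 mice and both P7 mice were above all mice at E18.5 and P21, with log2 changes of 1.30 to P1 (SE 0.425, edgeR adjusted p = 0.127) and -1.34 from P7 to P21 (SE 0.423, edgeR adjusted p = 0.572). The change to P1 passed with limma at 1.50 and without the male at E18.5 at 1.98. Tcf21 had 1746 and 369.8, 923 and 783, 1256 and 364, and 531 and 216 CPM at these ages, with overlap at every step. From P1 to P7 none were called by edgeR, of genes (0%) or factors, and 3 factors did not overlap against 40.8%. From P7 to P21 0.0702% of genes and 0 factors were called by edgeR, and 5 did not overlap against 44.8%. Twist2 had 1.41 and 3.58 CPM at P7 and no read in 256 cells at P21, at least 158-fold lower when 3 reads over the group are set as the floor. By cells the gap was smaller, as the P7 reads came from 1.83% of 218 and 3.40% of 147 cells. The upper limit at P21 was 1.17% of cells.

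In adventitial fibroblasts 0 factors were called by edgeR at any step, against 0.17% of genes from E18.5 to P1, 0% to P7 and 0.124% to P21. The factors without overlap were 4, 1 and 4, against 39.2%, 35.3% and 40.4% of all genes. Tcf21 had 969.7 and 978 CPM (E18.5), 328 and 361 (P1), 393 and 158 (P7), and 135 and 139 (P21). Both mice at E18.5 were thus above all later mice, with a log2 change of -1.51 to P1 (SE 0.401, edgeR adjusted p = 0.275; DESeq2 called it at -1.56). Twist1 had 1.42 and 8.24, 5.03 and 9.52, 0.313 and 0, and 8.69 and 4.76 CPM, lowest at P7.

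In myofibroblasts, from P1 to P7, 0 factors and 0% of genes were called by edgeR, and 7 factors did not overlap, against 41.5% of genes. Tbx3 had 132 and 149.8 CPM at P1 and 46.3 and 68.8 at P7 (log2 -1.37, SE 0.323, edgeR adjusted p = 0.525; DESeq2 called it at -1.45). Tbx5 went from 277 and 176 to 113 and 130.3 CPM (log2 -0.93, edgeR adjusted p = 0.595), while Tbx2, at 140.3 and 158 against 143 and 147, overlapped. Airway smooth muscle gave 7 factors without overlap from P1 to P7, against 37.7%, and 3 from P7 to P21, against 46.2%, with 0 factors called by edgeR at either step, against 0% and 1.13% of genes. Tbx3 had 115 and 206 CPM at P1, 50.7 and 79.2 at P7 and 50.0 and 51.8 at P21, so that the P1 mice were above all later normal mice, as in myofibroblasts. Gata6 had 6.04 and 0.226, 24.5 and 34.5, and 44.8 and 24.9 CPM, higher at both later ages (P1 to P7 log2 3.84, edgeR adjusted p = 0.919; DESeq2 called it at 3.79). Cdkn1a was the listed relative called from P7 to P21, higher by 5.64 (SE 0.803, edgeR adjusted p = 0.0140).

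In vascular smooth muscle, which rests on 15 to 33 cells per mouse, 0 factors were called by edgeR, against 0% of genes from P1 to P7 and 0.0886% from P7 to P21, and 5 and 7 did not overlap, against 33.9% and 37.2%. Tbx2 had 109 and 149 CPM at P1, 53.8 and 10.6 at P7 and 175 and 151 at P21, lowest at P7 (P7 to P21 log2 2.66, edgeR adjusted p = 0.608; DESeq2 called it at 2.71). Prrx1 was highest at P7, with 204 and 162, then 322 and 593, then 266 and 66.9 CPM. Meox2 had no read in 58 cells at P7 and 14.0 and 169.9 CPM at P21, at least 1597-fold higher against the floor of 3 reads, but those reads came from 1 of 33 and 1 of 19 cells. DESeq2 called this difference, and so did edgeR with only the 4 mice of the comparison. Pericytes, where 9 factors could be tested, had 0 called by edgeR at each step, against 0.042%, 0% and 0.0504% of genes, and 3, 4 and 4 without overlap, against 33.4%, 32.8% and 40.8%. Tbx2 in pericytes had 437 and 349.8, 416 and 504, 182 and 147, and 689 and 375 CPM from E18.5 to P21, and its P7 mice were below all others, as in vascular smooth muscle. Tbx4 in pericytes was lower at P7 than at P21, with 105 and 43.0 against 319 and 139 CPM (log2 1.64, edgeR adjusted p = 0.955).

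**Figure D4:**
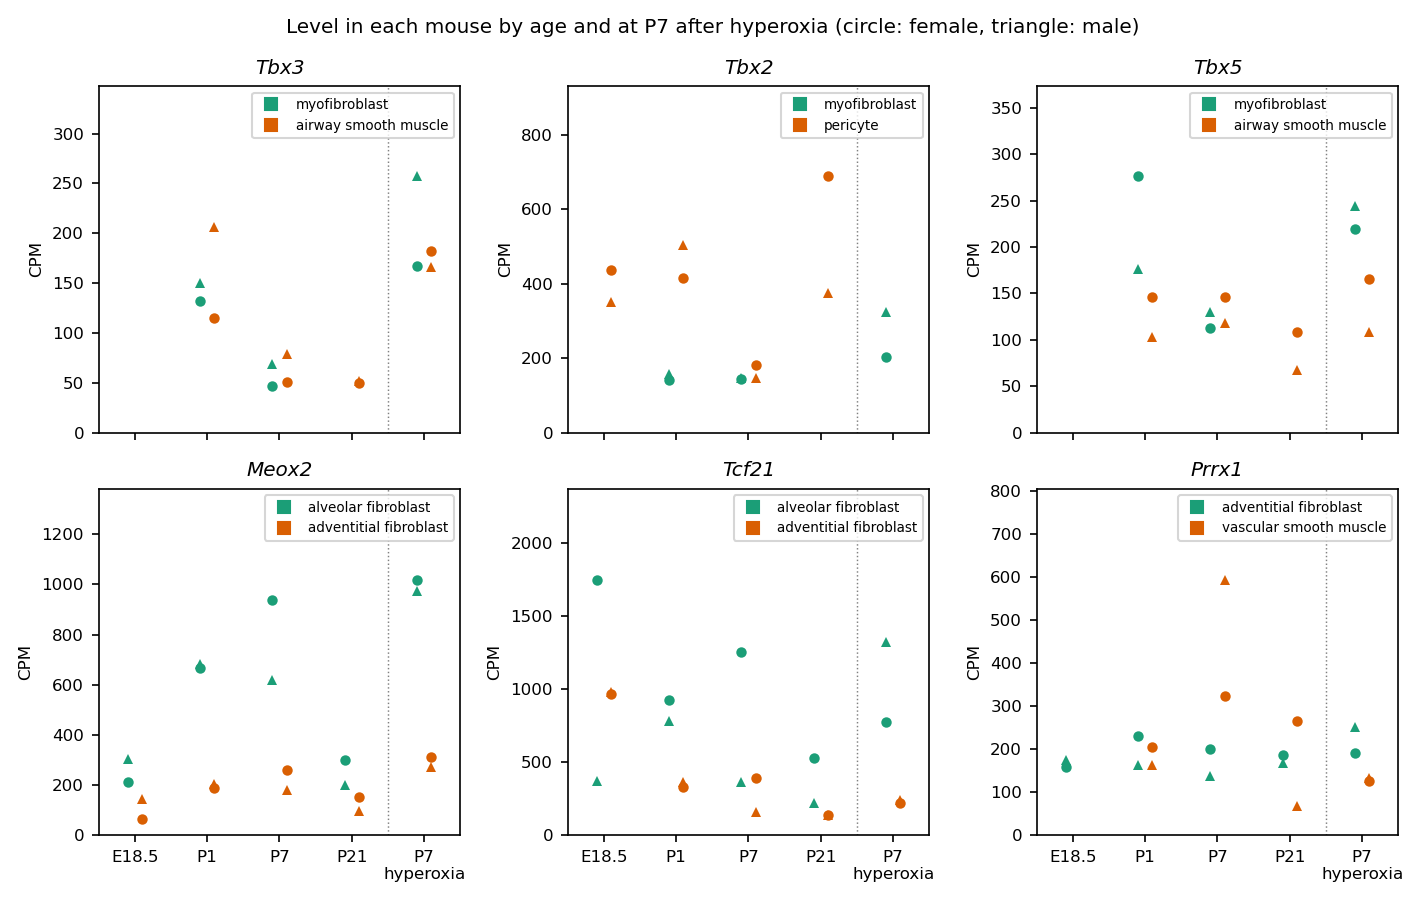
Level in CPM by age of selected factors and classes, 1 point per mouse, with hyperoxia at P7 as separate points. Tbx3 in myofibroblasts goes from 132 and 149.8 at P1 to 46.3 and 68.8 at P7 in normal air, and stands at 167 and 257 in hyperoxia.

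Hyperoxia was compared with normal air at P7 in 5 classes, and pericytes, with 5 and 3 cells, were left out. By edgeR 0 factors and 0% of genes were called in each class. In simulated hyperoxia data of alveolar fibroblasts and myofibroblasts the same test missed nearly all 4-fold changes. It also missed nearly all 16-fold changes in alveolar fibroblasts and many in myofibroblasts. A missing call therefore does not show that a factor was unchanged. At an unadjusted p under 0.05, edgeR gave 3 of the 10 factors in myofibroblasts, beside 847 of 13380 genes. In vascular smooth muscle it gave 3, beside 319 of 12417 genes. There was 1 in adventitial fibroblasts (1224 of 15289 genes), 1 in airway smooth muscle (418 of 13496) and 0 in alveolar fibroblasts (420 of 15670). DESeq2 called 2 factors, Tbx3 in myofibroblasts and Meox2 in vascular smooth muscle, and limma 0. Among all genes, DESeq2 called 1350 over the 5 classes and limma 34. The normal mice at P7 also enter the comparisons with P1 and P21, so these results share samples. In myofibroblasts 6 factors did not overlap, against 46.7% of genes. Tbx3 had 46.3 and 68.8 CPM in normal air and 167 and 257 in hyperoxia, a log2 change of 1.84 (SE 0.327, edgeR adjusted p = 0.308). Both hyperoxic mice were above both normal mice and above those at P1. Its change passed with DESeq2 at 1.86, with only the 4 mice of the comparison at 1.84, without the female at P1 at 1.83 and without the male at P1 at 1.77. The share of cells with a Tbx3 read, thinned to equal depth, was 38.8% and 34.8% in normal air and 86.2% and 93.3% in hyperoxia, and unthinned 49.0% and 42.4% against 91.4% and 95.6%. The number of genes per cell moved the same way, and its part in the shares was not tested.

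Tbx2 in myofibroblasts had 143 and 147 CPM in normal air and 202 and 324 in hyperoxia (log2 0.79, SE 0.327, edgeR adjusted p = 0.782), and Tbx5 had 113 and 130.3 against 219 and 244 (log2 0.89, SE 0.332, edgeR adjusted p = 0.760). Tbx4, at 143 and 217 against 168 and 213, overlapped. In myofibroblasts the summed level of 5 immune markers was 71.6 and 38.7 CPM in normal air and 131 and 88.7 in hyperoxia, with Cd52 at 0. The vascular smooth muscle markers summed to 897 and 1328 CPM in normal air and 603 and 185 in hyperoxia, the alveolar fibroblast markers to 372 and 633 against 245 and 163, and the epithelial ones to 28.5 and 19.3 against 3.78 and 17.8. The markers of myofibroblasts themselves summed to 6856 and 5169.9 against 8444 and 7655, and those of pericytes to 137 and 122 against 151 and 147. The part of these markers in the result was not tested. The difference of the hyperoxia effect between myofibroblasts and alveolar fibroblasts was 1.36 for Tbx3 (SE 0.329, edgeR adjusted p = 0.641), 1.05 for Tbx5 (SE 0.288, edgeR adjusted p = 0.725) and 0.63 for Tbx2 (SE 0.256, edgeR adjusted p = 0.856). In this test 0 factors and 0.013% of genes were called by edgeR. Of the 10 factors 2, Tbx3 and Tbx5, had an unadjusted p under 0.05, beside 896 of 15393 genes. DESeq2 called both, at 1.44 and 1.12. Over the 2 interactions tested, DESeq2 called 999 among all genes, where edgeR called 2.

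Airway smooth muscle had 5 factors without overlap, against 36.2% of genes. Tbx3 had 50.7 and 79.2 CPM in normal air and 182 and 166 in hyperoxia (log2 1.45, SE 0.448, edgeR adjusted p = 1), and Tbx2 had 115 and 60.0 against 152 and 216 (log2 1.16). Tbx4 was lower, at 80.7 and 85.0 against 138 and 115 CPM (log2 -0.59). The endothelial markers in these cells summed to 0.0681 and 0.128 CPM in normal air and 9.21 and 5.44 in hyperoxia, with Tie1 at 0. The alveolar fibroblast markers summed to 2002 and 2488 against 1738 and 1102 CPM and the vascular smooth muscle markers to 2271 and 2916 against 2243 and 1837, and the part of these lists was not tested.

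Alveolar fibroblasts had 2 factors without overlap, against 43.4% of genes. Meox2 had 937 and 619 CPM in normal air and 1016 and 972 in hyperoxia (log2 0.22), Prrx1 78.7 and 73.2 against 44.0 and 65.0 (log2 -0.65), and Tcf21, at 1256 and 364 against 775 and 1325, overlapped. This class left out 55 cells of the hyperoxic male that the authors named male hyperoxic fibroblasts. Those cells had 468 CPM of Meox2 and 47.6 of Prrx1, and their part in these differences was not tested. Adventitial fibroblasts had 4 without overlap, against 45.4%. Twist2 had 162 and 78.6 CPM in normal air and 53.0 and 55.3 in hyperoxia (log2 -1.29, SE 0.455, edgeR adjusted p = 0.621), and Tbx4 had 45.7 and 19.6 against 13.0 and 15.1 (log2 -1.18, SE 0.772, edgeR adjusted p = 0.698). Beside these values, mesothelial markers in adventitial fibroblasts summed to 249.7 and 0.0810 CPM in normal air and 685 and 768 in hyperoxia, endothelial ones to 0.148 and 0.210 against 22.3 and 57.7, and vascular smooth muscle ones to 128 and 192 against 303 and 356, and their part was not tested. The effect in adventitial minus alveolar fibroblasts had 0 factors and 0% of genes called by edgeR, and 0 factors by DESeq2. At an unadjusted p under 0.05 edgeR gave 2 of 10 factors, beside 1064 of 15587 genes. The differences were -1.17 for Tbx4 (edgeR adjusted p = 0.732) and 0.89 for Prrx1 (edgeR adjusted p = 0.729).

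Vascular smooth muscle, with 22 cells in each hyperoxic mouse and 27 and 31 in the normal ones, had 8 factors without overlap, against 36.1% of genes. Prrx1 had 322 and 593 CPM in normal air and 125 and 132 in hyperoxia (log2 -2.13, SE 0.720, edgeR adjusted p = 1), and Tbx5 had 185 and 104 against 61.5 and 48.9 (log2 -1.55, SE 0.686, edgeR adjusted p = 1). Both were lower in each hyperoxic mouse, while Tcf21, at 50.5 and 28.4 against 90.1 and 99.4, was higher. Meox2 had no read in the 58 normal cells and 14.3 and 26.8 CPM in hyperoxia, at least 395-fold higher against the floor of 3 reads, from 2 and 3 of 22 cells. Of the related list, 0 genes were called by edgeR in any of the 5 classes. At an unadjusted p under 0.05 the fewest were 1 of 29 tested, in airway smooth muscle, beside 418 of 13496 genes. The most were 7 of 41, in adventitial fibroblasts, beside 1224 of 15289 genes.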

How the data were processed

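RNA of single mesenchymal cells of mouse distal lung was read by a plate-based method with Tn5 transposase, per the labels. The deposited table holds whole-number counts of reads per gene and cell, and the submitters' processing notes name STAR 2.5.2b, HTSeq 0.10 and GRCh38, a human build. Coordinates of the table were not used. Whether counting used strand is not given in the sources used here, so antisense and overlapping genes cannot be told apart, and the counts are reads, not molecules. Subtype names are the authors' labels, made on these same cells; doublets were not called here, and of the 5480 cells 71 came from another sort or a small run.

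Reads were summed per mouse and class (at least 10 cells). The mouse, 1 female and 1 male per group, was the replicate. The tests used R 4.3.3 and the quasi-likelihood test of edgeR 4.0.16 (two-sided, filterByExpr, TMM scaling, Benjamini-Hochberg over all genes tested, threshold 0.05). Classes were compared with mouse as a term, ages and hyperoxia within a class with sex as a term, and 2 interactions in the 4 mice at P7. Shares of cells were taken after thinning each cell to 100000 reads, which left out 168 cells. Exact 95% intervals and the floor of 3 reads cover counting error only. The rule was to name all 10 factors in every comparison. The text counts all 10 each time and names those called, and for ages and hyperoxia it names those singled out after their values were seen. Related genes are named from lists by the largest 2 rises and falls that passed. The members and lists were chosen with earlier results of these data known. Promoters come from RefSeq (GRCm38.p6) and exon lengths from GENCODE M21. Alternatives were DESeq2 1.42.0, limma 3.58.1 on log2(mean CPM + 1), other size factors, filters, cell minimums and sets of mice. The tests were tested on simulated data, where most 4-fold changes were missed between alveolar and adventitial fibroblasts and nearly all under hyperoxia. Of 16-fold changes under hyperoxia, nearly all were missed in alveolar fibroblasts and many in myofibroblasts.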

Additional observations from a re-analysis of the deposited data

Results flagged for a closer look

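Of 380 combinations of factor, contrast and class pair, 13 had both mice higher in 1 class and both lower in the other. The share of all genes with such opposite changes was not computed. In a single contrast, the mice of 32.8% to 57.4% of all genes did not overlap, so the count is not read as a trait of these factors. None of these 13 differences was tested. Each is given as the difference of the log2 changes of the mean CPM + 1, and the classes share mice.

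From P1 to P7, Gata6 was higher in airway smooth muscle (means of 3.13 and 29.5 CPM) and in myofibroblasts (2.16 and 12.3) and lower in vascular smooth muscle (153 and 64.9), differences of 4.11 and 3.30. Under hyperoxia the order was the opposite, with Gata6 higher in vascular smooth muscle (64.9 to 119.6 CPM) and lower in airway smooth muscle (29.5 to 16.0), a difference of 1.72. The airway change, fitted at -1.03, was 0.37 without the male at P7 in normal air, so its direction rests on that mouse. Meox2 from P7 to P21 was higher in vascular smooth muscle (0 to 91.9 CPM) and lower in alveolar fibroblasts (778 to 250.4), adventitial fibroblasts (220.4 to 123) and pericytes (32.0 to 1.33), differences of 8.17, 7.37 and 10.36. The vascular reads came from 1 of 33 and 1 of 19 cells.

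Tbx4 under hyperoxia was higher in vascular smooth muscle (2.63 to 15.3 CPM) and lower in adventitial fibroblasts (32.6 to 14.1) and airway smooth muscle (126 to 82.9), differences of 3.32 and 2.76. The vascular reads came from few cells. Thinned to equal depth, 15.4% and 7.14% of vascular cells held a Tbx4 read in normal air. In hyperoxia it was 14.3% in each mouse, so the share did not rise in the female. Tbx5 under hyperoxia was higher in myofibroblasts (122 to 231 CPM) and lower in vascular smooth muscle (144 to 55.2), a difference of 2.28. From E18.5 to P1 Tbx5 was higher in pericytes (299.7 to 511 CPM) and lower in adventitial fibroblasts (64.6 to 31.0), a difference of 1.80. From P1 to P7 it was higher in alveolar fibroblasts (119 to 135 CPM) and lower in myofibroblasts (226 to 122) and pericytes (511 to 356), differences of 1.06 and 0.70. Tcf21 from P7 to P21 was higher in vascular smooth muscle (39.5 to 88.6 CPM) and lower in adventitial fibroblasts (275 to 137), a difference of 2.15.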

How the results depend on the processing

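Results between classes, between ages and under hyperoxia were recomputed with other size factors, tools, filters, cell minimums, runs and sets of mice, and the hyperoxia effect compared between classes with DESeq2 and without single mice. Of the 29 differences called, 14 passed under every alternative and all 29 kept their sign. The 10 lost without a single mouse are named in the text, and 5 others were lost only with the 4 mice at P7 alone, where 11 of 27 did not pass. Between classes 28 were called, with 20 to 35 under the alternatives and 21 to 27 without 1 mouse. Without the replicate block for mouse, 25 were called. Between ages the count was 1, with 18 by DESeq2, 4 by limma and 3 with only the 4 mice of a comparison, and 0 to 2 without 1 mouse. Under hyperoxia 0 passed, 2 by DESeq2, 1 with only the 4 mice, and 0 to 1 without 1 mouse. For the hyperoxia effect compared between classes 0 passed, 2 by DESeq2 and 0 to 1 without 1 mouse. The replicate block for sex changed no call, with 1 between ages and 0 under hyperoxia without it. Female deviations from the group means correlated between groups at -0.08 to 0.13 (median 0.02, 8509 genes, 10 pairs of groups, alveolar fibroblasts). In this class the samples of a sex thus showed little shared deviation, and other classes were not examined.

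The 10 factors kept their highest class for 9 with the mean over cells of CPM, for 6 by the share of cells with a read, thinned or not, for 5 when thinned to fewer reads, and for 9 to 10 without 1 mouse. By the share of cells, Tbx2 and Meox2 were highest in fibroblast precursors and Gata6 and Prrx1 in adventitial fibroblasts. Without the female at E18.5 Tbx4 was highest in myofibroblasts, without the male at P7 in normal air Prrx1 was highest in adventitial fibroblasts, and without the male at E18.5, the male at P1 or the female at P21 Twist1 was highest in myofibroblasts. Gata6 in airway smooth muscle under hyperoxia, at -1.03, ran from -1.83 to 0.37 without 1 mouse and was above 0 only without the male at P7 in normal air. Tcf21 from muscle precursors to airway smooth muscle, at -3.68, ran from -12.89 to 1.05 and was above 0 only without the male at E18.5. Neither was called, and the cause was not tested. DESeq2 called more genes in all than edgeR, with 17879 against 8217 between classes, 15617 against 1531 between ages and 1350 against 0 under hyperoxia. Vascular smooth muscle rests on 15 to 33 cells per mouse, and 0 reads there mean only a level under the floor of 3 reads.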

Other observations

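After thinning, the median cell of a fibroblast precursor held reads of 5 of the 10 factors in both mice, and that of a muscle precursor 4. Medians per mouse ranged from 1 to 6 in alveolar fibroblasts, from 2 to 5 in adventitial fibroblasts and from 1 to 3 in vascular smooth muscle. In vascular smooth muscle, Gata6 and Tcf21 reads occurred together in 6.17% ± 6.27 of cells (SD, n = 8 mice), against 12.3% from the product of their shares, a gap within the spread. In adventitial fibroblasts they occurred together in 31.1% ± 14.0 (n = 10), against 29.8%, and Tcf21 with Prrx1 in 55.7% ± 12.7, against 52.8%.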
